A study of Mus musculus with 3 samples.

Results

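The strongest H3K36me3 windows of fully grown mouse oocytes were 1626 of 1186323 windows of 2 kb, or 0.137% of the valid windows and 3.252 Mb of the genome. They were selected on the measured signal itself: the mean over 3 replicates of the value deposited as RPKM (reads in the window scaled to library depth) was at least 5, and every replicate was above 1. Their level is therefore a description, and tests were kept to measures the choice did not use. The replicates were 3 pools of about 280 wildtype germinal vesicle (GV) oocytes, which still hold an intact nucleus, taken from C57BL6/Babr mice aged 25 days. Chromatin was cut with micrococcal nuclease, pulled down without cross-linking and sequenced, and less antibody went into replicate 2. The pools form a single group without a control group or an input library here, so windows were compared with other windows of the same libraries.

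H3K36me3 is laid down behind elongating RNA polymerase and covers the bodies of transcribed genes. In growing oocytes it probably helps, directly or indirectly, to recruit the de novo DNA methyltransferases, and transcribed gene bodies become methylated at CpG sites. H3K4me3 marks promoters and, in oocytes, wide untranscribed stretches, while H3K27me3 is deposited by Polycomb proteins over silent chromatin. H3K36me3 and H3K27me3 seldom share a nucleosome tail.

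The windows that lead each group of results are shown by the 300 bases at their centre, read from the forward strand of GRCm38 (RefSeq sequence), with CpG dinucleotides in capitals since these are the sites of DNA methylation. The strongest window of all lay in Hlcs, which encodes the ligase that attaches biotin to carboxylases (chr16:94138851-94139150, overlapping an annotated exon). The strongest window of Ttn, the gene of the sarcomere protein titin, also touched an exon (chr2:76758851-76759150). The stretches from Cdh23, a cadherin of sensory hair cells (chr10:60388851-60389150), and Lrch1 (chr14:74804851-74805150) were intronic, and their windows were called for H3K27me3 as well and lay in the longest runs of that kind. Stretches from a window outside every gene (chr13:57156851-57157150), from a window of Lsm14b called for H3K4me3 (chr2:180026851-180027150) and from a window of Cript called for all 3 marks (chr17:87026851-87027150) complete the set, of which the last 2 were intronic. Around the intronic stretches of Lrch1, Cript and Lsm14b, exons made up 12.1%, 17.6% and 25.1% of the whole window.
Hlcs: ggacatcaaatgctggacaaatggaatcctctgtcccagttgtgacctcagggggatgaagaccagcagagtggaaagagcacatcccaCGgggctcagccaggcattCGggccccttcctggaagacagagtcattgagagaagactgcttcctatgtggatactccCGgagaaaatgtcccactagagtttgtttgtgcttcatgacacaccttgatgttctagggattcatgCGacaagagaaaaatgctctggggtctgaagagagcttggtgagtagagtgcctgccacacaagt
Ttn: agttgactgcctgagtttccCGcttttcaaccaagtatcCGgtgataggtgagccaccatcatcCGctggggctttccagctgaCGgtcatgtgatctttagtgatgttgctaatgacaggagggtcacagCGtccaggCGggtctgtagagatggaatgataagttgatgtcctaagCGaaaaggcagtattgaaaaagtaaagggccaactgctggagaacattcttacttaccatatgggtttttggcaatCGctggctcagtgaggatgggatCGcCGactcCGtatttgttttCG
Cdh23: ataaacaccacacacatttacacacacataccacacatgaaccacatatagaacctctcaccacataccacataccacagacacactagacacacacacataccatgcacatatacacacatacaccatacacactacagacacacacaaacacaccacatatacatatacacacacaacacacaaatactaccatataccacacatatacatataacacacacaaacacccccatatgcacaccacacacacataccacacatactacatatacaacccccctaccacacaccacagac
Lrch1: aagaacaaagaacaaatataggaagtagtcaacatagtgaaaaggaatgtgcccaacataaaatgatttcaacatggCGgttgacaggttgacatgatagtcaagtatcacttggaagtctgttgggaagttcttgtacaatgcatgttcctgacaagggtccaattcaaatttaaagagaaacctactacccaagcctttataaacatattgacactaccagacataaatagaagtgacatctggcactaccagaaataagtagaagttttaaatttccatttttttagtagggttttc
No gene: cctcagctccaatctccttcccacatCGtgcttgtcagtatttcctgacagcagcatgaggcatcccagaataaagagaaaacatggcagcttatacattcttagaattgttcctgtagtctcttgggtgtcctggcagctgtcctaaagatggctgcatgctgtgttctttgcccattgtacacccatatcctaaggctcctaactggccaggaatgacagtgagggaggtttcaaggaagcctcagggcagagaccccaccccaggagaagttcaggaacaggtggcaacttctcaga
Lsm14b: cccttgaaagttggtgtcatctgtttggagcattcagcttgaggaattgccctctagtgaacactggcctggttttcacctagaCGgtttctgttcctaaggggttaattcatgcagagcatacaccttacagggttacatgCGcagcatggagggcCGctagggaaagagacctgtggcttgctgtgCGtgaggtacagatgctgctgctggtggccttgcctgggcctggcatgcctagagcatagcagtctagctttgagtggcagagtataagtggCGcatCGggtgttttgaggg
Cript: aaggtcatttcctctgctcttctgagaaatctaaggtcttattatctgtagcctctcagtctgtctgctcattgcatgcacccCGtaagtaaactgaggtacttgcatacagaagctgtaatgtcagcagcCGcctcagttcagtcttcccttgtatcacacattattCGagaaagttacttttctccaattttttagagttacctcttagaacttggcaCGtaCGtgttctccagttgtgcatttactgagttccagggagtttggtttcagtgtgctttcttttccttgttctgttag
Within these stretches the number of CpG sites ran from 0 in Cdh23 and 1 each in Lrch1 and the window without a gene to 4 in Hlcs, 5 in Cript, 6 in Lsm14b and 12 in Ttn. Over the whole 2 kb windows, on which H3K36me3 was measured, CpG density was lowest in the window without a gene (8 per kb) and in Cdh23 (8.5) and highest in Ttn (23). The Cdh23 stretch was written largely in alternating a and c.

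The Hlcs window measured 7.60, 13.9 and 13.2 RPKM in replicates 1 to 3, with a mean of 11.6 ± 3.44 (SD, n = 3). The window in Sdk1, the gene of a cell adhesion molecule, measured 7.47, 15.5 and 11.5 in replicates 1 to 3. The window in Pcnx2 measured 6.93, 14.7 and 11.2. In all 3 windows replicate 1 was the lowest, and the windows were called for H3K27me3 in addition. Zfp180, a zinc finger gene, held the most even window of the leading 10, with 10.3, 11.1 and 9.81. It was called for all 3 marks and lay 89.5% of the way along the gene, where 79.8% of its bases were exonic. Ksr2, which encodes a scaffold of Ras signalling, measured 5.57, 11.1 and 11.2 in its strongest window. Nxf1, the export receptor of messenger RNA, measured 8.96, 7.93 and 10.8. Lsm14b, an RNA-binding protein gene, measured 5.70, 12.3 and 9.48. The remaining windows of the leading 10 lay outside genes. They were on chromosome 13 (6.52, 12.3 and 11.8 in replicates 1 to 3), chromosome 1 (6.52, 9.91 and 12.9) and chromosome 4 (6.79, 9.51 and 11.5). Of these windows in no gene, the nearest annotated gene was 82.8, 19.7 and 41.0 kb away.

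Most of the 1626 windows sat just above the threshold. A mean of 5 to 6 RPKM was found in 1241 (76.3%), of 6 to 8 in 342, and of 8 or more in 43. The windows just inside the threshold had a mean of 5.001, and those just outside 4.998 to 4.999. Another window, at chr9:78470001-78472000, had a mean of 5.26 and was left out because replicate 1 stood at 0.951, while replicate 2 stood at 13.5 and replicate 3 at 1.35. The mean level of the 1626 windows was 4.17, 6.26 and 6.69 RPKM in replicates 1 to 3, against 0.903, 0.900 and 0.903 over all valid windows. Replicate 1 was the lowest replicate in 1209 (74.4%) and the highest in 32. It was also the deepest library, with 7888140 reads in valid windows against 2692510 and 3166564. A window held a median of 30, 16 and 19 reads in replicates 1 to 3, and 49 to 133 reads in all. The spread between replicates of a window had a median SD of 1.94 RPKM, and counting alone gave its mean a median standard error of 0.753. All 3 replicates reached 5 in 180 windows (11.1%), at least 2 replicates in 1108 and exactly 1 replicate in 518. A share of the windows therefore entered on the value of a single library.

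**Figure D1:**
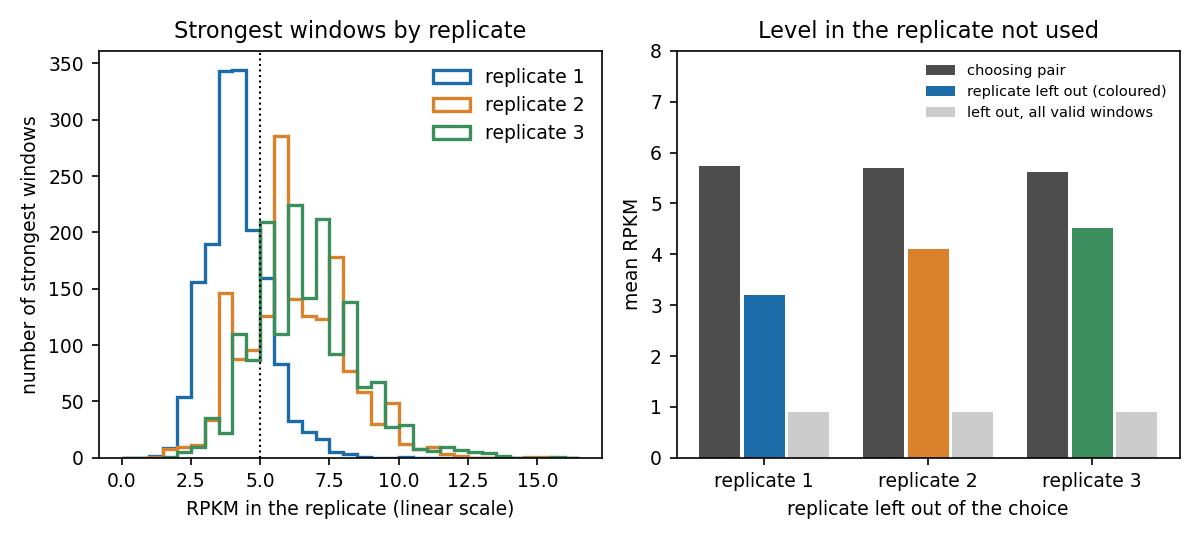
Left, number of the 1626 strongest windows by RPKM in each replicate (linear axis, bins of 0.5, dotted line at 5). Right, mean RPKM of windows chosen in 2 replicates, in the choosing pair (dark), in the replicate left out (coloured) and over all valid windows in that replicate (light), with replicate 1 lowest at 3.21 and all 3 left-out replicates above their light bar.

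To read the windows without the choice, each pair of replicates chose its own (mean of at least 5, both above 1) and the remaining replicate was read. Replicates 2 and 3 chose 4961 windows, whose mean in replicate 1 was 3.21. Replicates 1 and 3 chose 2086, with 4.11 in replicate 2. Replicates 1 and 2 chose 1757, with 4.52 in replicate 3. The mean over the 3 left-out replicates was 3.94 ± 0.672 (SD, n = 3), below the 5.68 ± 0.0629 of the choosing pairs and 4.37 ± 0.745 times the level of all valid windows. The left-out replicate was above 1 in 99.7%, 97.1% and 98.9% of the chosen windows, against 31.98%, 32.5% and 35.1% of all valid windows. It reached 5 in only 6.17%, 29.6% and 36.2%, against 0.0587%, 1.06% and 1.17% of all. Enrichment at these windows was thus seen in each pool, while a value of 5 was reached at a minority of them, though more often than over all windows.

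On average the strongest windows stood out locally from wide enriched ground. In the left-out replicates the mean fell from 3.94 at the chosen window to 3.17 and 3.18 at 2 kb on either side, to 2.30 and 2.28 at 10 kb and to 1.68 and 1.70 at 50 kb. Both neighbours had a mean above 1 in 1483 of the 1581 windows with valid neighbours (93.8%), and in 2 windows neither did. That share was not set beside one for moderate windows. In the left-out replicates, the windows 2 kb to either side were above 1 in 93.2% and 93.5%, against 33.2% of all valid windows. The 1626 windows made up 1393 runs of adjoining windows, of which 1217 were a single window. There were 131 runs of 2 windows, 36 of 3, 7 of 4, 1 of 5 and 1 of 6. Runs were cut by the threshold itself, as the median neighbour had 3.36 RPKM, so they do not measure the width of enrichment.

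**Figure D2:**
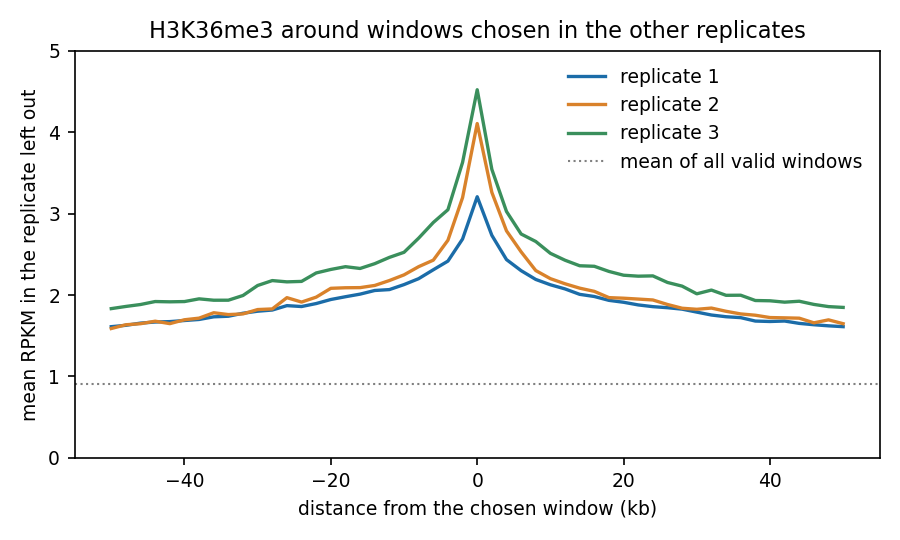
Mean H3K36me3 (RPKM) in the replicate left out against distance in kb from windows chosen in the other replicates; each line is a replicate and the dotted line the mean of all valid windows. The mean of the 3 lines falls from 3.94 at the chosen window to near 1.7 at 50 kb, with replicate 1 lowest at the peak.

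The windows lay mainly inside genes. The midpoint was in a gene in 1322 of 1626 (81.3%), against 74.4% of the windows with a mean above 1 and below 5 (moderate windows) and 48.9% of all valid windows. Protein-coding genes held 1194 (73.4%), non-coding genes alone 128, among them 86 in lincRNA genes, and 304 (18.7%) lay in no gene. Of the last, 207 were more than 10 kb from any annotated gene, and the farthest was 421 kb away. Within each replicate, windows of at least 5 RPKM were genic in 80.9%, 83.8% and 79.4%, and moderate windows in 74.0%, 67.6% and 69.0%. The difference was +11.2 ± 4.66 percentage points and positive in 3 of 3 replicates (exact two-sided sign-flip permutation test, p = 0.25, Benjamini-Hochberg adjusted over 5 contrasts 0.3125). Against moderate windows of 2 to 5 RPKM the difference was only 2.46 ± 3.38 and no longer had 1 sign in all replicates (exact p = 0.5). With 3 replicates 0.25 is the smallest p this test can give, so none of the 5 contrasts could pass 0.05.

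Inside long genes the windows leaned towards the 3′ end. Position was read for 1046 windows in exactly 1 protein-coding gene of at least 20 kb, in 650 genes with a median length of 137 kb over windows. The median position was 0.651 of the gene. When genes were cut into 3 equal parts, the 3′ part held 48.1% of the strongest windows and 37.1% of moderate windows, and the 5′ part 22.3% and 29.1%. When they were cut into 10 equal parts, the first held 6.69%, the eighth 14.0%, the ninth 15.9% and the last 15.5%. The 5 kb at the gene start held 56 of these windows and the 5 kb at the end 80, and a protein-coding start site lay in 8 of all 1626 (0.492%), against 1.15% of moderate windows and 1.65% of all valid windows. Within each replicate the 3′ part held 49.0%, 42.7% and 45.5% of windows of at least 5 RPKM and 37.1%, 36.4% and 36.5% of moderate windows, a difference of +9.07 ± 2.79 percentage points in 3 of 3 replicates (exact sign-flip permutation p = 0.25, adjusted 0.3125). Against moderate windows of 2 to 5 RPKM it was 5.96 ± 2.28. By mean level, the 3′ part already held 46.3% of the windows of 4 to 5 RPKM.

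**Figure D3:**
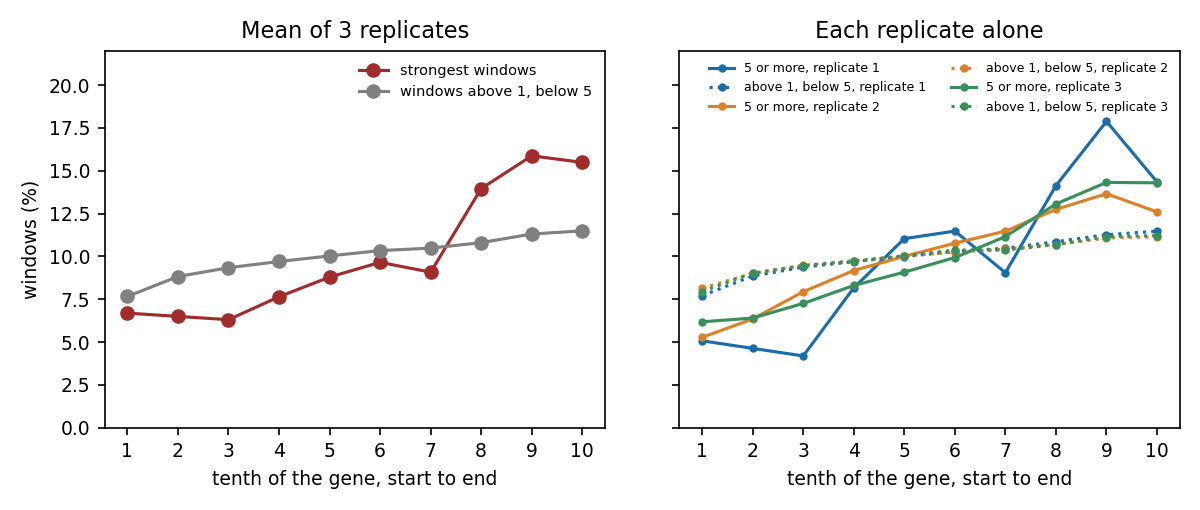
Share of windows (%) in each of 10 equal parts of protein-coding genes of at least 20 kb, from start to end, for the mean of 3 replicates (left) and for each replicate alone (right, solid for at least 5 RPKM, dotted for above 1 and below 5). The strongest windows rise from 6.69% in the first part to 15.5% in the last. In every replicate the solid line lies above the dotted one throughout the last 3 parts, and the lines first cross earlier.

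The strongest windows also held more exon. Exons took up 12.6% of their bases, against 8.46% in moderate windows and 5.15% in all valid windows, and 47.9% touched an exon, against 32.1% and 19.7%. Their GC content averaged 44.4%, against 42.9% and 41.8%, and CpG sites 9.84 per kb, against 9.06 and 8.32. Repeat-masked sequence covered 21.5%, 25.1% and 30.8%. Windows just below the threshold, with a mean of 4 to 5 RPKM, were already close to the strongest windows. There, exons took up 10.9% of bases and 46.2% touched an exon. GC content was 44.2%, CpG sites 9.68 per kb and repeat-masked sequence 20.6%. These traits are therefore not particular to the strongest windows. Within replicates, GC content was 1.32 ± 0.332 percentage points higher in windows of at least 5 RPKM than in moderate windows, in 3 of 3 replicates (exact sign-flip permutation p = 0.25, adjusted 0.3125). GC content also alters library yield, and its part in the signal was not tested.

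Of the 1626 windows, 1167 were called for H3K36me3 alone, 303 also for H3K27me3, 154 also for H3K4me3 and 2 for all 3 marks. These calls are the authors' own, 1 per window without replicates. The H3K4me3 and H3K27me3 calls rest on other libraries, so the choice of windows did not use them. H3K4me3 was called in 156 (9.59%), against 16.0% of moderate windows and 28.3% of all valid windows. Within each replicate it was called in 9.48%, 8.01% and 9.94% of windows of at least 5 RPKM and in 17.3%, 20.9% and 19.3% of moderate ones. The difference was -10.0 ± 2.59 percentage points and negative in 3 of 3 replicates (exact sign-flip permutation p = 0.25, adjusted 0.3125). Against moderate windows of 2 to 5 RPKM it was smaller, -2.81 ± 2.45. By mean level the share was 21.7% at 1 to 2 RPKM, 10.2% at 2 to 3, 7.97% at 3 to 4 and 8.47% at 4 to 5. It was 10.1% at 5 to 6. The strongest windows were therefore not lower in H3K4me3 calls than the windows just below the threshold.

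H3K27me3 was called in 305 of the strongest windows (18.8%), against 8.05% of moderate windows and 30.0% of all valid windows. By mean level the share was lowest, 4.42%, at 2 to 3 RPKM and then 5.20%, 8.39%, 17.2% and 22.8% in the bins from 3, 4, 5 and 6, up to 30.2% of the 43 windows at 8 or more. The genic share stayed between 80.9% and 83.2% over the same bins. The higher H3K27me3 share was found in every class of GC content, from 7.28% against 5.01% of moderate windows below 40% GC to 44.2% against 13.1% at 52% or more.

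The separate replicates did not share this pattern. In replicate 1, H3K27me3 was called in 19.97% of the windows of at least 5 RPKM and 8.71% of moderate windows. In replicate 2 the shares were 5.995% and 15.5%, and in replicate 3 8.80% and 12.7%. The mean difference was -0.728 ± 10.8 percentage points, and its sign differed between replicates (exact sign-flip permutation p = 1, adjusted 1). The lower limit of moderate windows, above 1 RPKM, was 8 reads in replicate 1 but 3 in replicates 2 and 3. Moderate windows were therefore not alike between replicates, and the part of read depth in the disagreement was not tested. A level of 5 took 696, 12577 and 13889 windows in replicates 1 to 3. When thresholds were set, after the values were seen, to take between 1450 and 1598 windows in each, the shares were 16.1% against 8.70% in replicate 1, 8.83% against 15.2% in replicate 2 and 15.0% against 12.6% in replicate 3. The excess over moderate windows thus held in the mean of the 3 replicates and in replicate 1, in replicate 3 under the second threshold only, and in replicate 2 under neither. Without replicate 1, the other replicates chose 4961 windows, of which 10.5% were called for H3K27me3.

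**Figure D4:**
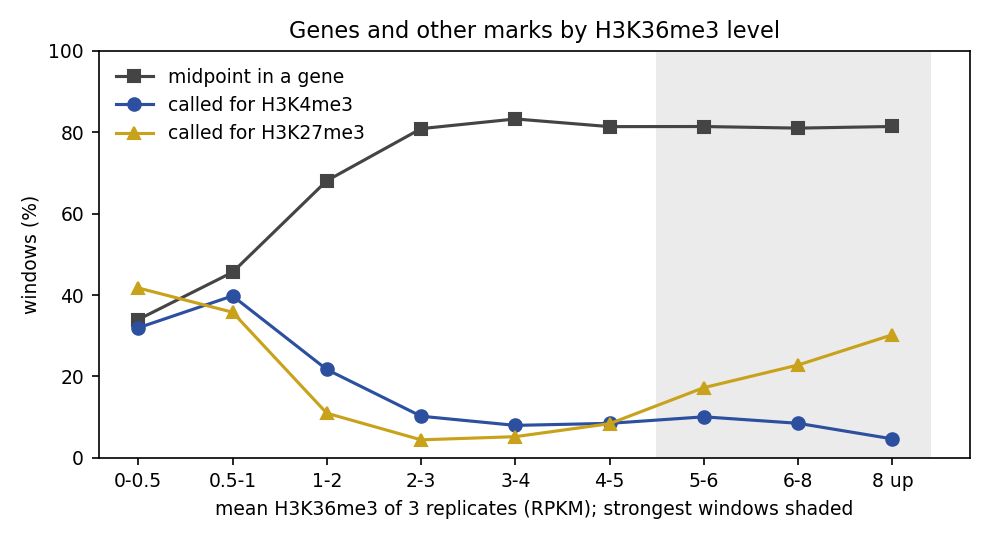
Share of windows (%) with the midpoint in a gene, called for H3K4me3 and called for H3K27me3 against mean H3K36me3 of 3 replicates in RPKM, with the bins of the strongest windows shaded. The H3K27me3 share falls to 4.42% at 2 to 3 RPKM and reaches 30.2% at 8 or more, while the genic share stays above 80% from 2 RPKM.

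Among the strongest windows, those with another mark sat in different parts of genes. Moderate windows were not split by mark, so whether these positions are particular to the strongest windows was not tested. Of the 201 windows with a position, H3K27me3 and no H3K4me3, 62.2% lay in the 3′ part of the gene and 9.95% in the 5′ part. Of the 104 with H3K4me3 and not H3K27me3, 17.3% lay in the 3′ part and 69.2% in the 5′ part. The 740 windows called for H3K36me3 alone had 48.5% and 19.1%. Their mean H3K36me3 was 5.86, 5.57 and 5.68 RPKM, in that order, values held near the threshold by the choice itself. The strongest windows with H3K4me3 alone beside H3K36me3 were those of Lsm14b, of Hhat, the acyltransferase of Hedgehog proteins (5.57, 4.36 and 12.2 in replicates 1 to 3), and of AC152076.1 (4.48, 8.32 and 8.80). The window of Cript with all 3 marks measured 6.11, 6.34 and 9.81.

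Protein-coding genes with a strongest window numbered 791 of 20450, or 3.87%, and 6.97% of those of at least 20 kb. A single window was held by 563 genes, 2 by 126 and 3 or more by 102. Genes with a window had a median length of 86.7 kb, against 19.1 kb for all.

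Loxhd1 and Cdh23, both known for their part in the hair cells of the inner ear, held the most, with 15 strongest windows each. The 15 in Loxhd1, of 80 valid windows, averaged 4.54, 6.84 and 6.34 RPKM in replicates 1 to 3, against 2.98, 3.83 and 3.85 over the gene. They lay between 37.9% and 83.9% of the gene and included the longest run, 12 kb at chr18:77406001-77418000. All 80 windows of the gene had a mean above 1, and 42 of them, with 13 of the 15 strongest, were called for H3K27me3. Cdh23 held its 15 among 195, at 5.19, 6.16 and 6.001 RPKM against 3.11, 3.30 and 3.14 over the gene. They lay between 58.8% and 94.3% of the gene, and all 15 were called for H3K27me3, as were 106 of the 195.

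Ttn held 12 of 137 windows, at 4.59, 7.003 and 7.08 RPKM against 3.02, 3.26 and 3.28 over the gene. No window of Ttn was called for H3K27me3 or H3K4me3, which sets it apart in these calls from Loxhd1 and Cdh23. Exons covered 56.5% of the bases in the 12, against 42.6% over the gene. Of the 12, 5 formed the run chr2:76752001-76762000, which also lies in the antisense gene Gm13938 and measured 5.16, 7.77 and 8.93.

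Hydin, a gene of the central apparatus of motile cilia, held 8 strongest windows, all 8 called for H3K27me3, at 4.16, 6.84 and 6.64 RPKM. H3K27me3 was called in 64 of its 172 windows. Sdk1 held 7, all in the last part of the gene from 72.2% on, at 5.33, 7.64 and 8.61, and 2 of these were called for H3K27me3. Lrp2, the endocytic receptor megalin, also held 7, at 5.12, 6.002 and 7.64, with 5 called for H3K27me3, as were 46 of its 81 windows. Hhat held 7 at 4.73, 6.40 and 7.69, none called for H3K27me3. Lrch1 held 6, at 4.84, 6.61 and 6.71, of which 4 formed the run chr14:74798001-74806000 and were called for H3K27me3. The 7 each of Gm20388 and Fgfr2 belong to gene models annotated over 4435 and 2961 kb. Other protein-coding genes lay at 5 of the 7 in each, among them Cdh15 at 2 in Gm20388 and Dmbt1 at 4 in Fgfr2. Several counts changed when 1 library was left out. Without replicate 1 the whole set grew from 1626 to 4961 windows. It then held 23 windows in Cdh23, 11 in Sdk1, 11 in Lrp2 and 14 in Gm20388. Without replicate 2 there were 12 in Sdk1, and without replicate 3 there were 4 in Lrp2 and 3 in Fgfr2. The long gene models do not show which transcript the windows belong to.

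The genes with the highest share of strongest windows were taken from those with at least 10 valid windows. Col11a2, a collagen chain gene of cartilage, held 4 of 13 (30.8%), all 4 called for H3K27me3 like 12 of the 13 windows of the gene, at 3.97, 7.43 and 6.35 RPKM in replicates 1 to 3. Slc43a3 held 3 of 11, at 2.99, 4.89 and 9.36, and there replicate 3 alone was above 5. Gm4869 held 6 of 25, all 6 called for H3K27me3 beside 14 of the 25 windows of the gene, at 3.92, 6.34 and 6.15. Zfp180 held 3 of 13, at 7.70, 7.93 and 11.3, the only one of the 5 with all replicates above 5. Zfp946 held 3 of 14, at 4.93, 6.74 and 8.46.

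Zinc finger genes with a numbered Zfp symbol were counted after Zfp180 and Zfp946 had been seen, so the count supports nothing by itself. A strongest window was held by 37 of 352 (10.5%), with 51 windows in all, against 3.87% of all protein-coding genes. Of the 51, 38 lay in the 3′ part of the gene, here read in genes of any length. An exon was touched by 43, and exons covered 50.1% of their bases. Of all strongest windows 47.9% touched an exon, and exons covered 12.6% of bases. The other windows of the 352 genes were not counted in this way, so these values are not particular to the 51. H3K27me3 was called in 4 and H3K4me3 in 2. Chromosomes 7 and 17 carried 9 and 8 of the 37 genes, but how many of the 352 lie there was not counted.

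Among non-coding genes, Gm48877, an antisense gene, held 5 strongest windows with a mean of 5.59 RPKM, of which 4 lay in no protein-coding gene. The pseudogene AC154486.3 held 4 with a mean of 6.86, which formed the run chr17:22778001-22786000 (5.98, 7.83 and 6.77 in replicates 1 to 3). Among lincRNA genes, Pvt1, the neighbour of Myc, held 4 with a mean of 5.499, Gm27164 4 with 5.33 and Gm7706 3 with 5.73. The longest run in no gene was chr4:131602001-131610000, at 5.06, 5.45 and 10.6, where replicate 3 stood well above the other replicates and 3 of the 4 windows were called for H3K27me3.

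Imprinted genes, which are expressed from 1 parental copy after the germline has methylated their control regions, were looked up by a list. Of 19 listed, 12 held a strongest window (63.2%), against 3.87% of all protein-coding genes. As some of the 19 overlap, the windows were 17 in all, and 5 were called for H3K27me3. The list was drawn up with earlier results of these data known and includes non-coding genes, and no test was made.

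In the imprinted cluster of chromosome 12, Meg3 held 2 windows at 6.79, 7.33 and 6.09 RPKM in replicates 1 to 3, and Rtl1, a retrotransposon-derived gene, held 2 of its 5 windows at 5.23, 8.92 and 6.77. Both windows of each were called for H3K27me3, as were 8 of the 16 windows of Meg3 and all 5 of Rtl1. Meg3 and the overlapping Gm26906 carried the 6 kb run chr12:109568001-109574000, and Rian held 1 window at 4.48, 4.36 and 8.80. Dlk1 in the same cluster held none, and its mean over the gene was 0.335.

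Elsewhere, Snrpn held 3 windows at 4.62, 5.68 and 8.69, and Igf2r, which encodes the receptor that clears IGF2, held 3 at 3.49, 6.47 and 5.41, 2 of them shared with its antisense gene Airn. Gnas, a G protein gene, held 2 at 3.46, 6.34 and 7.78, and 1 of these also lay in its antisense gene Nespas. Peg3 (6.02), Mest (5.04), Plagl1 (5.10) and Peg10 (5.18, mean of 3 replicates) held 1 window each. Of the 7 without a window, Grb10, Kcnq1ot1 and Mirg had gene means of 2.68, 1.95 and 3.89, while Igf2, H19 and Zdbf2 stood at 0.224, 0.181 and 0.472.

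Genes that identify the oocyte were mostly enriched: of 27 such genes, 24 had a gene mean above 1, with a median of 2.18, against 53.6% of all protein-coding genes and a median of 1.17. Sohlh1 (0.330), Zar1 (0.224) and Btg4 were not above 1. A strongest window was held by 2 of the 27 (7.41%), Btg4 and Nlrp5, against 3.87% of all protein-coding genes. Nlrp5, a maternal-effect gene, held it near its start at 3.94, 4.36 and 9.81 in replicates 1 to 3. Btg4, an adaptor in the clearance of maternal messenger RNA, held it 95.1% of the way along its gene at 3.12, 7.53 and 7.45, while the gene mean was 0.501. Both windows were called for H3K4me3.

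None of 12 granulosa cell genes, markers of the somatic cells around the oocyte, held a strongest window, a count that does not stand apart from the 3.87% of all protein-coding genes. Of these 5 of 12 had a gene mean above 1, against 53.6% of all protein-coding genes, with Bmpr1b highest at 2.34, and the median was 0.844. Nr5a2 (2.01), Kitl (1.53), Hsd17b1 (1.50) and Inhba (1.11) were the others above 1. Fshr stood at 0.353, Foxl2 at 0.362 and Amh at 0.991. Foxl2 (1.09, 0 and 0 in replicates 1 to 3) and Amh (1.90, 0.396 and 0.677) rested on 1 valid window each. None of 12 genes of later embryonic lineages held a strongest window, with a median of 0.451 and 3 above 1. Among 13 genes of the H3K36 and DNA methylation machinery all had a gene mean above 1, against 53.6% of all protein-coding genes. All 13 are at least 20 kb long, and 6309 of 9975 protein-coding genes of that length were above 1. A strongest window was held by 2 of the 13 (15.4%), against 3.87% of all protein-coding genes and 6.97% of those of at least 20 kb. No test was made. The 2 genes were Setd2, the enzyme that trimethylates H3K36, and Kdm2b, an H3K36 demethylase, with 1 window each. Setd2 measured 3.39, 5.55 and 9.14 in its window, and Kdm2b 3.39, 6.74 and 5.41. The window of Setd2 lay near the gene start, 2.79% of the way along, and was called for H3K4me3. That of Kdm2b lay 52.7% of the way along and was not.

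Chromosome 5 carried the most strongest windows, 183 or 2.66 per 1000 valid windows, and chromosome 3 the fewest per 1000 among the autosomes and X, with 0.613. The X chromosome had 0.785 and chromosome 19 had 0.826. Chromosome 5 also ranked first in each replicate alone by the share of windows of at least 5 RPKM, at 0.0871%, 1.67% and 1.71%. Chromosome 3 ranked lowest of these 20 chromosomes in replicates 2 and 3 but 17 of 20 in replicate 1, where X was lowest at 0.0287%. Chromosome 5 had 37.9% of its windows above a mean of 1, the highest share among those chromosomes. On the Y chromosome, where 15 windows were valid, 1 window in Gm47283 was among the strongest at 1.90, 5.15 and 12.9, and 86.2% of it was repeat-masked.

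**Figure D5:**
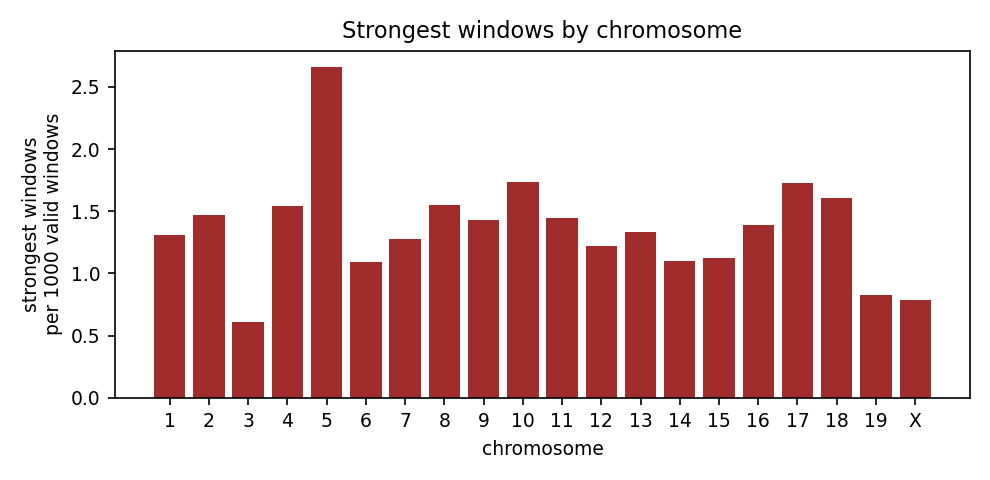
Strongest windows per 1000 valid windows (linear axis from 0) by chromosome; each bar is the count over the mean of 3 replicates, and Y is left out because only 15 of its windows were valid. Chromosome 5 stands highest at 2.66 and chromosome 3 lowest at 0.613.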

How the data were processed

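The authors mapped the reads to GRCm38 with Bowtie2 2.2.9 (per the labels), counted them over 2 kb windows in SeqMonk and removed windows with very few or very many input reads. The deposited table gives a linear RPKM per replicate. Its values are whole multiples of the worth of 1 read (0.136, 0.396 and 0.338 RPKM in replicates 1 to 3), from which reads were recovered (100% whole within 0.01 reads). Whether the values were also divided by window length was not settled, so 5 is a threshold on the deposited scale. Whether duplicate reads were removed is not given in the sources used here, and intervals from counts cover counting error only. The second deposited table names the marks called per window. It holds no measurement.

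The strongest windows and the gene lists were chosen with earlier results of these data known. Genes came from GENCODE M21 by window midpoint, and sequence, GC and repeats from RefSeq GRCm38. Within each replicate, windows of at least 5 RPKM were compared with those above 1 and below 5 by an exact two-sided sign-flip permutation test over 3 replicates. Separate pools are labelled as replicates, and nothing says whether they came from separate mice.

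Named items were the 10 genes with most strongest windows, the 10 strongest windows, the 5 longest runs (all, and with H3K27me3), the 3 strongest windows in no gene and with other marks (2 exist with all), 5 non-coding genes, list genes with a window, and 5 genes by share. Sequences were the first of each. Where those 300 bases lay on a chromosome whose sequence is not shown or overlapped a UTR, the next window was taken. Functions were tested on simulated data. Computation used Python 3.11.15, NumPy 2.4.6, pandas 2.3.3 and matplotlib 3.10.9.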

Additional observations from a re-analysis of the deposited data

How the results depend on the processing

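No paired analysis was possible because no groups of samples were compared (windows were compared within each replicate). Of 78 recomputed values, 61 stayed within their limits, 13 moved and 4 reversed; the cause was not tested. At a threshold of 4 the strongest windows numbered 9495, at 6 385, and without 1 replicate 1757 to 4961. The count without replicate 1 was the highest. Of the 1626 windows, 1606, 1011 and 906 remained without replicates 1, 2 and 3. The level in the left-out replicate was 3.24 at a threshold of 4 and 5.07 at 6. The genic share ranged from 78.7% to 84.3% without 1 replicate and was 73.4% for protein-coding genes only. The H3K27me3 share was 10.2% at a threshold of 4 and 10.5% to 17.1% without 1 replicate, lowest without replicate 1. The H3K4me3 share was 8.05% at a threshold of 6 and 7.74% to 10.3% without 1 replicate. The share in the 3′ part of long genes was 55.0% at a threshold of 6. The H3K27me3 difference within replicates turned positive, to 5.31 percentage points with moderate windows of 2 to 5 RPKM, to 1.14 with about the same number of windows in each replicate (chosen after seeing the data), and ranged from -6.72 to 3.66 without 1 replicate, with 3.66 without replicate 2 and 0.874 without replicate 3. Of 90 recomputed gene counts, 62 were within 1.5 times the value given. Read depth limits single windows: 5 RPKM is 37 reads in replicate 1 but 13 in replicate 2 and 15 in replicate 3.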
